A study of Mus musculus with 10 samples.

Results

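Notch signalling is a contact signal in which a ligand on one cell leads to cleavage of the receptor on its neighbour, and the released receptor domain enters the nucleus. There it joins the DNA-binding protein RBPJ and a Mastermind coactivator, and switches on targets such as Hes1 and Dtx1. In the thymus the pathway is known above all for driving early progenitors into the T lineage, before the cells studied here arise. The 8 genes described are the receptors Notch1, Notch2 and Notch3, the nuclear partners Rbpj and Maml1, the targets Dtx1 and Hes1, and Numb, an adaptor protein that opposes Notch receptors. They were chosen by name among 23005 genes with a RefSeq transcript. Their transcripts comprised the 15 RefSeq transcripts of these genes, which stand in both short-read files, and spliced assembled transcripts that shared an intron with 1 of the 8 genes and with no other gene. There were 21 such assembled transcripts in CD8SP cells and 30 in CD4SP cells.

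The cells were CD8 single-positive (CD8SP) and CD4 single-positive (CD4SP) thymocytes of C57BL/6 mice aged 6 to 8 weeks, the precursors of cytotoxic and of helper T cells. Each sample pooled 2 or 3 thymi and was cleared of cells with the other coreceptor on magnetic beads, then sorted as TCRβ+CD24- cells that were CD8+CD4- or CD4+CD8-. No group was treated or carried a mutation. Each lineage had 1 long-read library and 4 short-read samples that the labels separate by lane, and the lanes of a lineage were deposited as a single file. There is thus 1 value per gene and lineage, no replicate stands behind any difference, and no p-value is given.

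The labels held in the data: all 6 lineage markers were called in the direction of their lineage, among them Cd8a at 241 FPKM in CD8SP and 10.9 FPKM in CD4SP, and Cd4 at 1.69 FPKM in CD8SP and 107 FPKM in CD4SP. FPKM is the number of fragments after scaling by transcript length and by library size, and a gene's value is the sum over its transcripts. All 5 T cell markers tested were above 1 FPKM and none was called. The 8 immature thymocyte markers other than the coreceptors summed to 36.4 FPKM in CD8SP and 53.1 FPKM in CD4SP, and 2 of the 6 tested, Rag1 and Arpp21, were called higher in CD4SP. The sort excluded CD24, yet Cd24a stood at 10.1 FPKM in CD8SP and 11.8 FPKM in CD4SP. B cell markers summed to 5.89 FPKM in CD8SP, and to 1.25 FPKM in CD4SP, and the 1 tested, Cd79b, was called higher in CD8SP at 5.49 FPKM, against 0.583 FPKM in CD4SP. Cd79a and Pax5 were listed at 0 in both libraries. The direction of the B cell sums does not hold in an exon-based value, which also takes in assembled transcripts that overlap the exons, since Cd79a there stood at 0.248 in CD8SP and 7.05 in CD4SP. Myeloid and dendritic markers summed to 1 FPKM in CD8SP, and to 2.92 FPKM in CD4SP. The 1 tested, H2-Ab1, was called higher in CD4SP, at 0.254 FPKM in CD8SP and 1.32 FPKM in CD4SP, Itgam stood at 0.0524 FPKM in CD8SP and 0.615 FPKM in CD4SP, and Csf1r stood at 0.171 FPKM in CD8SP and was listed at 0 in CD4SP. Stromal and endothelial markers summed to 16.0 FPKM in CD8SP and 23.7 FPKM in CD4SP, most of it from Pecam1 at 14.8 FPKM in CD8SP and 22.4 FPKM in CD4SP, and Krt5, Krt8 and Foxn1 were listed at 0 in CD8SP.

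Dtx1 was the 1 gene of the 8 that was called different between the lineages. It encodes Deltex1, a ubiquitin ligase and a known target of Notch in T cells, and it was 2.66-fold higher in CD8SP cells. Notch1 and Notch2 were also somewhat higher in CD8SP cells, by less than the 2-fold size a call requires. A gene was called where 3 conditions held, namely at least 1 FPKM in the higher library, at least 1 in size for the log2 ratio of CD8SP over CD4SP (0.1 added to both values), and summed deposited intervals that stood apart. Of the 8 genes, 6 reached 1 FPKM, and 1 of these 6 was called, against 14.8% of the 9620 genes tested. In the direction of CD8SP, 10% of genes were called, and the 1 of 6 among these genes is to be read against that share. The median log2 ratio of the 6 was 0.28, beside 0.22 over all genes tested, both on the side of CD8SP. In these bulk libraries, fewer cells of a type and less RNA per cell cannot be told apart.

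Dtx1 (chromosome 5, 120680203 to 120711867, minus strand, GRCm38) stood at 23.2 FPKM in CD8SP, with a deposited interval of 22.8 to 25.9, and at 8.69 FPKM in CD4SP, with an interval of 8.14 to 9.61. The log2 ratio was 1.40. The long reads listed 0 isoforms opposite to Dtx1 in CD8SP and 1 in CD4SP, and their part in the level was not tested. In CD8SP cells Dtx1 was the highest of the 8 genes and lay above 84.5% of the genes at 1 FPKM or more, while in CD4SP cells it came second and lay above 59.6% of them. Part of the CD8SP level came from a short assembled transcript of 3 exons at the 3′ end (120680282 to 120682499), at 8.15 FPKM with an interval of 8.47 to 10.1, so its own value lies just outside that interval. In CD4SP the highest assembled transcript of the gene had 9 exons and 1.11 FPKM. The full-length RefSeq transcript alone stood at 14.1 FPKM in CD8SP and 6.32 FPKM in CD4SP, a log2 ratio of 1.14, which was still called. All 9 introns of Dtx1 were spliced at a higher level in CD8SP, 7 of them at 2-fold or more. Over the introns the level ran from 14.1 to 23.2 FPKM in CD8SP and from 6.90 to 8.11 FPKM in CD4SP, without overlap.

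**Figure D1:**
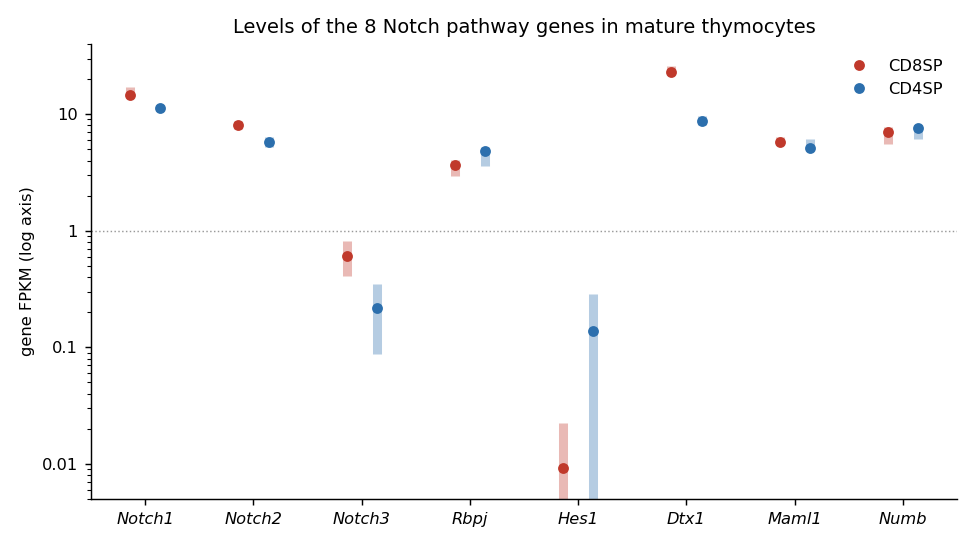
Gene FPKM of the 8 genes on a log axis, with CD8SP left of CD4SP for each gene. Points are the values of the single pooled libraries, bars the summed deposited intervals, which run off the axis where they reach 0, and the dotted line marks 1 FPKM. Dtx1 shows the widest gap among the genes above that line, and the points of Notch1 in CD8SP and of Maml1 in both libraries lie below their bars.

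Among the receptors, Notch1 (chromosome 2, 26457902 to 26503822, minus strand), the receptor that drives T lineage entry, was the most abundant. It stood at 14.6 FPKM in CD8SP and 11.2 FPKM in CD4SP, a log2 ratio of 0.38 that was not called. The CD8SP value lies below its own interval of 15.1 to 17.1, and the CD4SP interval was 10.7 to 12.1. Notch2 (chromosome 3, 98013538 to 98150367, plus strand), known for its part in peripheral lymphocytes, stood at 8.08 FPKM in CD8SP, with an interval of 7.47 to 8.76, and at 5.78 FPKM in CD4SP, with an interval of 5.18 to 6.40. Its log2 ratio of 0.48 was not called. Both receptors were higher in CD8SP by less than 2-fold, and when the libraries were scaled to a common median, a shift of 0.21 on the log2 scale, 0.17 remained for Notch1 and 0.27 for Notch2. Notch3 (chromosome 17, 32120820 to 32166896, minus strand), a receptor of immature thymocytes, was scarce at 0.607 FPKM in CD8SP and 0.216 FPKM in CD4SP. Its intervals of 0.406 to 0.818 in CD8SP and 0.0876 to 0.347 in CD4SP stood apart and its log2 ratio was 1.16, but it stayed under 1 FPKM in both libraries and was not tested.

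The direction of Notch1 turned on how its transcripts were counted. Over the RefSeq transcript alone, Notch1 stood at 2.54 FPKM in CD8SP and 8.31 FPKM in CD4SP, a log2 ratio of -1.67 that passes the call in the other direction. In CD8SP the assembly held a further transcript of 34 exons and 9199 bases with the same chain of introns as the 9489-base RefSeq transcript, at 8.45 FPKM with an interval of 9.13 to 9.79. Summed over all transcripts with that complete chain, Notch1 stood at 11 FPKM in CD8SP and 8.31 FPKM in CD4SP, a log2 ratio of 0.40, and that chain made up 75.1% of the gene's FPKM in CD8SP and 74.0% in CD4SP. All 33 introns of Notch1, 33 of Notch2 and 32 of Notch3 were spliced at a higher level in CD8SP. For Notch1 the introns ran from 11 to 14.6 FPKM in CD8SP and from 8.31 to 11.2 FPKM in CD4SP, and for Notch2 from 5.95 to 7.73 FPKM in CD8SP and from 3.91 to 4.95 FPKM in CD4SP. Introns of one transcript share its value and are not independent counts.

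**Figure D2:**
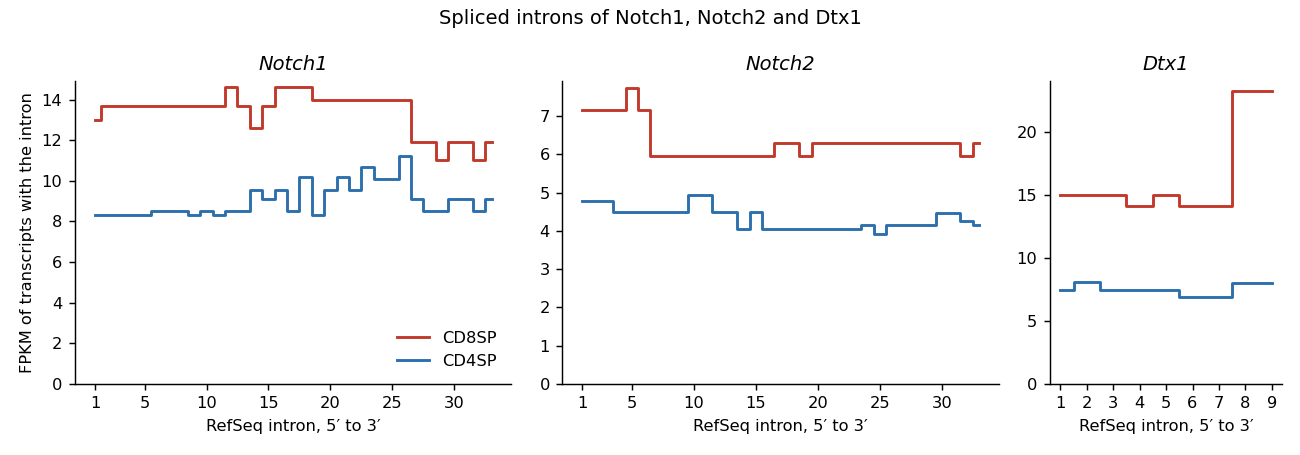
Summed FPKM of the transcripts that carry each RefSeq intron of Notch1, Notch2 and Dtx1, from 5′ to 3′ (horizontal axis, intron number). The CD8SP line lies above the CD4SP line at every intron of the 3 genes, and at the last 2 introns of Dtx1 it reaches 23.2 FPKM.

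Of the nuclear partners, Rbpj (chromosome 5, 53555779 to 53657445, plus strand), the DNA-binding protein that all Notch receptors use, stood at 3.64 FPKM in CD8SP, with an interval of 2.96 to 4.02, and at 4.80 FPKM in CD4SP, with an interval of 3.57 to 5.20. The intervals overlapped and the log2 ratio of -0.39 was not called. It turned to 0.34, also uncalled, over RefSeq transcripts alone. Pseudogenes of Rbpj stand in the gene table, so reads can be shared with them and its level is uncertain. Maml1 (chromosome 11, 50255634 to 50293131, minus strand), the Mastermind coactivator, stood at 5.74 FPKM in CD8SP and 5.08 FPKM in CD4SP, all of it from the RefSeq transcript, with a log2 ratio of 0.18 that became -0.03 after scaling. Both values lie below their own intervals, 5.86 to 6.43 in CD8SP and 5.33 to 6.08 in CD4SP, and the intervals overlap.

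Hes1 (chromosome 16, 30065357 to 30067796, plus strand), the classical repressor target of Notch, was nearly silent at 0.00921 FPKM in CD8SP and 0.137 FPKM in CD4SP, both with intervals that reach 0. Most of the CD4SP value came from a 2-exon assembled fragment at 0.127 FPKM. Of the 2 targets among these genes, Dtx1 was thus well above 1 FPKM in both lineages and Hes1 under it in both.

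Numb (chromosome 12, 83794034 to 83921942, minus strand) was present at like levels, 6.99 FPKM in CD8SP with an interval of 5.60 to 7.83, and 7.61 FPKM in CD4SP with an interval of 6.16 to 8.03. The log2 ratio was -0.12. In descending order the CD8SP levels ran Dtx1, Notch1, Notch2, Numb, Maml1, Rbpj, Notch3 and Hes1. The intervals of Notch2 and Numb, and of Numb and Maml1, overlapped there. In CD4SP the order was Notch1, Dtx1, Numb, Notch2, Maml1, Rbpj, Notch3 and Hes1, with overlapping intervals between Numb and Notch2, Notch2 and Maml1, and Notch3 and Hes1.

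Numb was not called by its level, and it held the 1 annotated splicing event that was called. Mammalian Numb proteins come in forms with or without a short insert in the phosphotyrosine-binding domain, which joins Numb to its partners, and with or without a longer insert in the proline-rich region. Both inserts are single exons whose lengths are multiples of a codon, 33 bases for 11 codons (83825259 to 83825291) and 147 bases for 49 codons (83797197 to 83797343). They are shown from GENCODE M21 transcripts on GRCm38 because the Numb results turn on them, as transcript strand with the exon in capitals and 24 bases of the flanking coding exons in lower case.
Short exon, exon 3 of 9 in Numb-201: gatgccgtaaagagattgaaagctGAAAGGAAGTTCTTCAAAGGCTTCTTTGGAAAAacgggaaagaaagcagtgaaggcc
Long exon, exon 9 of 10 in Numb-207: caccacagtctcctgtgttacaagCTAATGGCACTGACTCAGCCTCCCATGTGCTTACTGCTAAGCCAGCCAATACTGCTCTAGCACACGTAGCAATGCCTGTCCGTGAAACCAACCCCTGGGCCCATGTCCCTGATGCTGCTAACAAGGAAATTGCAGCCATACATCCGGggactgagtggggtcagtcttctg

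The long exon was included less in CD8SP cells. Its percent spliced in (PSI), the share of summed FPKM in transcripts with the exon among those with or without it, was 23.4% in CD8SP, with extremes of 17.6 to 29.1 over the deposited intervals, and 48.1% in CD4SP, with extremes of 42.6 to 53.1. In FPKM, transcripts with the exon stood at 1.13 in CD8SP and 2.60 in CD4SP, and those without it at 3.69 in CD8SP and 2.80 in CD4SP. Of the form without the exon, 2.58 FPKM in CD8SP and 2.80 FPKM in CD4SP came from a RefSeq transcript recorded as non-coding. Of the form with the exon, 0.955 FPKM in CD4SP came from a 7-exon assembled transcript that runs past the RefSeq 3′ end. A shift between protein forms was thus not tested. A call required 20 points, with the 2 forms together at 1 FPKM or more in each library, and the difference of -24.7 points passed. Over RefSeq transcripts alone the PSI was 18.1% in CD8SP and 36.9% in CD4SP, and the difference of -18.9 points no longer passed. The short exon was at 13.8% in CD8SP, with extremes of 9.89 to 19.0, and at 0% in CD4SP, a difference of 13.8 points that was not called. Its CD8SP share rests on an assembled transcript of 0.774 FPKM, as the RefSeq transcripts with the exon were listed at 0 in both libraries. The highest assembled Numb transcript had 9 exons and 1.11 FPKM in CD8SP, and 5 exons and 1.22 FPKM in CD4SP.

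The other named events of Numb had one form missing from a library. A 134-base alternative 3′ splice site whose forms are both in RefSeq was at 100% in CD8SP and 82.3% in CD4SP, and a 9-base one stood at the same values because a 7-exon CD4SP transcript of 0.955 FPKM carried the shorter form of both. That transcript ran 3691 bases past the RefSeq 3′ end, against 160 bases for the farthest CD8SP transcript. An 85-base exon near the 5′ end (83855440 to 83855524) was at 57.7% in CD8SP and 100% in CD4SP, which was called. The intron that skips it, 83842359 to 83876667, is not in RefSeq and occurs in 6 GENCODE transcripts, and it was carried by 1.89 FPKM in CD8SP and by no CD4SP transcript. An alternative first exon was at 100% in CD8SP and at 80.2% in CD4SP, where the value lies below its own extremes of 81.0 to 89.9, and was not called.

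Rbpj has 3 RefSeq first exons, each spliced to the same second exon, so they give the protein different starts. Their coding parts are shown on the transcript strand, from GENCODE M21, because they are the parts by which the RefSeq forms differ.
Rbpj-202, ending at 53555903: ATGTTGGCCTATAG
Rbpj-201, ending at 53590486: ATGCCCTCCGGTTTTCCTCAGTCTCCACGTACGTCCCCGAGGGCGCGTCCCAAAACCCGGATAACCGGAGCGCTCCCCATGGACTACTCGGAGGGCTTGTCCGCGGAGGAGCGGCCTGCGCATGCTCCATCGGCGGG
Rbpj-203, ending at 53590724: ATGGCGCCTGTTGTGACAGG

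Between the 2 downstream starts, the one ending at 53590486 took 33.8% in CD8SP, with extremes of 26.3 to 42.0, and 31.0% in CD4SP, with extremes of 21.9 to 40.9, so the choice between them differed by less than its own extremes. These shares rest on 1.29 FPKM in CD8SP and 1 FPKM in CD4SP. The RefSeq transcript with the upstream start was listed at 0 in both libraries. A 5-exon assembled CD4SP transcript of 0.559 FPKM used that start and no CD8SP transcript above 0 FPKM did, but the events that compare it were under the minimum in CD8SP and not tested. Full RefSeq intron chains made up 35.5% of the Rbpj FPKM in CD8SP and 20.8% in CD4SP. The rest came from assembled transcripts, of which the highest had 4 exons and 0.873 FPKM in CD8SP, and 10 exons and 1.30 FPKM in CD4SP. The assembled transcripts ran up to 2488 bases past the RefSeq 3′ end in CD8SP and 2068 bases in CD4SP.

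Outside the starts, 4 Rbpj events were called, all in the 3′ part of the gene and each with a form assembled in a single library. The intron at 53651481 to 53652606 was retained at 26.9% in CD8SP and 0% in CD4SP, and the next, at 53652763 to 53653081, at 29.4% in CD8SP and 0% in CD4SP. The intron at 53649776 to 53651339 was retained at 0% in CD8SP and 40.5% in CD4SP. A 104-base exon (53653082 to 53653185) was included at 100% in CD8SP and 43.6% in CD4SP. These 4 events come from few transcripts, since the 10-exon CD4SP transcript alone carries the skipping form.

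**Figure D3:**
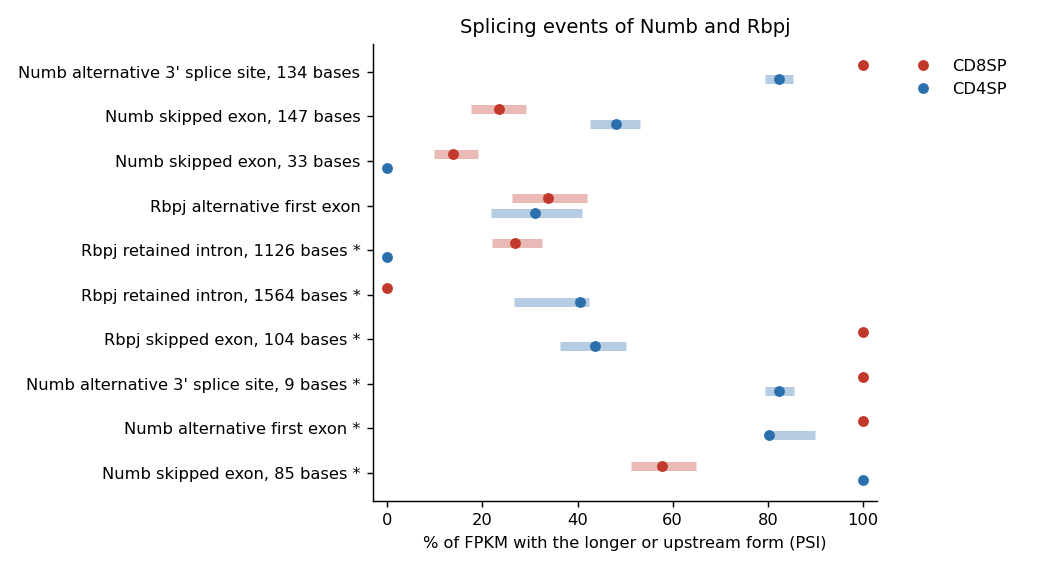
PSI of the named Numb and Rbpj events in percent, with CD8SP above CD4SP for each event. Points are the values of the pooled libraries, bars the extremes that the deposited intervals allow, and an asterisk marks events with a form absent from RefSeq. The bars of the 147-base Numb exon stand apart, at 23.4% in CD8SP and 48.1% in CD4SP, and those of the Rbpj first exons overlap.

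Counted over the 8 genes, 4 events with both forms in RefSeq could be tested and 1 was called, the long Numb exon, against 17.2% of 2646 such events over all genes. With forms assembled in either library, 56 events were tested and 8 were called, against 19.2% of 75087. Among the 17 events whose 2 forms were both above 0 FPKM in both libraries, 1 was called, again the long Numb exon, against 11.5% of 19797. The counts are small, and read against these shares they give no result about the 8 genes as a group. Of the 8 calls, 4 were in Rbpj, 2 in Notch1 and 2 in Numb. Notch2 and Dtx1 had 10 and 6 events tested and none called, and Notch3, Hes1 and Maml1 had none that could be tested.

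Retained introns made up 35 of the 56 tested events, and most of these were in Notch1. A Notch1 transcript that held an intron was assembled for 12 of its 33 RefSeq introns in CD8SP and for 21 in CD4SP. The mean share of FPKM with the intron retained, over the 33 introns, was 2.61% in CD8SP and 5.56% in CD4SP. The retained share was higher in CD8SP at 5 introns and higher in CD4SP at 17. These introns are not independent counts. Most in CD8SP share a single assembled transcript of 0.922 FPKM, and many in CD4SP share another of 0.611 FPKM. Some gaps were small, as at 26476494 to 26476946, with 6.29% in CD8SP and 6.70% in CD4SP. No retained share over all genes was taken, so the counts give no result particular to Notch1. The intron at 26471306 to 26472070 was called, at 0% in CD8SP and 22.6% in CD4SP, with extremes of 20.3 to 25.8 in CD4SP. The other Notch1 call, 26466344 to 26466466, concerns an intron outside RefSeq that a CD4SP transcript of 0.549 FPKM removes, so that the unspliced form was at 100% in CD8SP and 74.0% in CD4SP. The Notch1 events with the most FPKM behind them were not called. Among them the introns at 26468031 to 26468231 and 26468804 to 26469604 were retained at 0% in CD8SP and at 10.3% and 9.88% in CD4SP. A 160-base alternative 5′ splice site was at 100% in CD8SP and 95.1% in CD4SP. At the same summed FPKM, the intron at 26470059 to 26470273 was retained at 0% in CD8SP and 14.8% in CD4SP. The short-read libraries were made from total RNA depleted of ribosomal RNA, which can hold unspliced RNA, and the part of unspliced RNA in these shares was not tested. The highest assembled Notch1 transcript in CD4SP had 11 exons and 1.06 FPKM.

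**Figure D4:**
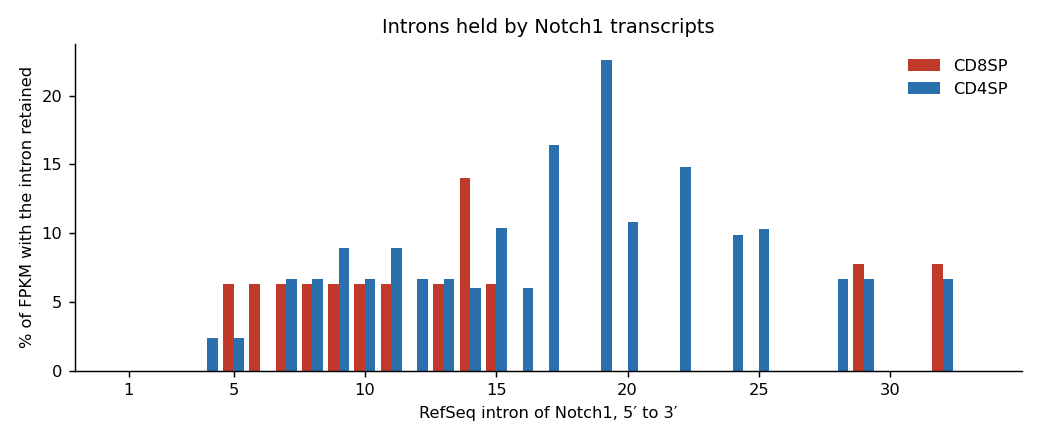
Share of Notch1 FPKM, in percent, in transcripts that retain each of the 33 RefSeq introns, from 5′ to 3′, with CD8SP bars left of CD4SP bars. The tallest CD8SP bar is at 14% and the tallest CD4SP bar at 22.6%.

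Small alternative splice sites of Notch2 and Dtx1 were assembled in both libraries. Of 22 member introns absent from RefSeq, 7 occurred in CD8SP, 18 in CD4SP and 3 in both, of which 1 was in Notch2 and 2 in Dtx1, although the CD4SP transcript with the second Dtx1 intron (120683459 to 120683686) was listed at 0. No share of such introns over all genes was taken, so these counts give no result about the 8 genes. Over all genes, 637618 transcripts were listed in CD8SP and 686660 in CD4SP. The Notch2 intron ends 3 bases before a RefSeq one (98144510 to 98145118) and lengthens the next exon by 3 bases, at 5.66% in CD8SP and 7.09% in CD4SP. In Dtx1, the intron at 120682466 to 120682567 begins 12 bases downstream of the RefSeq splice site on the transcript strand and is held by a GENCODE transcript of Dtx1. The longer exon it leaves was at 6.24% in CD8SP and 13.9% in CD4SP, and the neighbouring intron at 120682739 to 120683060 was retained at the same shares, because the same transcripts carry both. The first Dtx1 intron, 120710976 to 120711484, was retained at 0% in CD8SP and 8.39% in CD4SP. None of these differences was called. In Notch2 the introns at 98100389 to 98101520 and 98113156 to 98115231 were retained at 8.51% and 0% in CD8SP and at 0% and 9.46% in CD4SP, also uncalled. The highest assembled Notch2 transcript had 7 exons and 1.23 FPKM in CD8SP, against 3 exons and 0.461 FPKM in CD4SP, and those of Notch3 had 10 exons and 0.162 FPKM in CD8SP, against 30 exons and 0.0703 FPKM in CD4SP.

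The long-read libraries covered some of these genes and not others. They listed 8 isoforms of the members among 9476 in CD8SP and 7 among 8289 in CD4SP. Maml1 had 2 isoforms and Numb 5 in each library, and Notch1 had 1 in CD8SP and 0 in CD4SP. Notch2, Notch3, Rbpj, Hes1 and Dtx1 had 0 in both. Of the 6 members at 1 FPKM or more, 3 had a long-read isoform in CD8SP and 2 in CD4SP, against 33.1% of genes at that level in CD8SP and 27.6% in CD4SP. Among genes within 1.5-fold of the level of Dtx1, 49.0% had an isoform in CD8SP and 29.1% in CD4SP. No full-length read count is given with an isoform, so the depth behind each is unknown and an isoform counts once.

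The Notch1 isoform of CD8SP had 7 exons and 5552 bases and was classed as intron retention, and its predicted reading frame of 186 residues lay between 26477818 and 26479486. The other 14 isoforms had a single exon, as did 64.7% of all isoforms in CD8SP and 66.8% in CD4SP. The genome downstream of their 3′ ends was rich in A, at 65% to 90% over all 15, where 60.1% of isoforms in CD8SP and 64.0% in CD4SP reached 60% A. Those of Numb were between 1378 and 3441 bases long and those of Maml1 between 1645 and 1915 bases. In 5 cases an isoform of CD8SP and one of CD4SP began and ended within 100 bases of each other, 2 in Maml1 and 3 in Numb. As the Numb isoforms all have a single exon, none shows a splice junction of either insert exon.

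The wider pathway was described over 65 further genes, of which 64 were matched to the files and 46 reached 1 FPKM. In this list 4 genes were called higher in CD8SP, against 10% of all genes, and 3 higher in CD4SP, against 4.76%, with a median log2 ratio of 0.16 beside 0.22 over all genes tested. Of the 5 ligand genes, which in the thymus are known from stromal cells, none reached 1 FPKM. They lay between 0 and 0.0392 FPKM in CD8SP and between 0 and 0.278 FPKM in CD4SP, the highest being Jag2, listed at 0 in CD8SP and at 0.278 FPKM in CD4SP.

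Among 6 tested genes of other receptors and receptor processing, Furin, the protease that first cuts the receptor on its way to the surface, was called, at 5.36 FPKM in CD8SP and 2.48 FPKM in CD4SP. Its log2 ratio of 1.08 fell under the threshold after scaling. Of the 5 enzymes that add sugars to the receptor, Rfng, a Fringe glycosyltransferase, was called at 2.99 FPKM in CD8SP and 1.17 FPKM in CD4SP, a log2 ratio of 1.29, and the median of the 5 was 0.67. Of 15 nuclear cofactors, Cir1, a corepressor that binds RBPJ, was called at 4.57 FPKM in CD8SP and 1.44 FPKM in CD4SP, and the Mastermind gene Maml2 at 4.76 FPKM in CD8SP and 11.7 FPKM in CD4SP. The CD4SP value of Maml2 lies below its own interval of 13.1 to 14.6. Their log2 ratios were 1.6 for Cir1 and -1.28 for Maml2. Of 14 tested genes of receptor trafficking and degradation, Neurl3, of the Neuralized ubiquitin ligase family, was called at 6.24 FPKM in CD8SP and 2.56 FPKM in CD4SP, a log2 ratio of 1.26.

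Among 6 tested targets other than the members, 2 were called and both were higher in CD4SP, against 4.76% of all genes tested. The median log2 ratio of the 6 was -0.66, and the count is too small to give a result about targets as a group. Gata3, a transcription factor of helper T cells, stood at 4 FPKM in CD8SP and 15.3 FPKM in CD4SP, a log2 ratio of -1.91. Il2ra, the high-affinity chain of the interleukin 2 receptor and a marker of regulatory T cells, stood at 0.366 FPKM in CD8SP and 3.22 FPKM in CD4SP, a log2 ratio of -2.83. Myc, named after its values were seen, stood at 22.9 FPKM in CD8SP and 11.4 FPKM in CD4SP and was not called. Called targets lay in both directions, Dtx1 higher in CD8SP and Gata3 and Il2ra higher in CD4SP. Of the 6 immature thymocyte markers tested, 2 were called higher in CD4SP, with Rag1 at 4.12 FPKM in CD8SP and 12.5 FPKM in CD4SP and Arpp21 at 2.07 FPKM in CD8SP and 5.54 FPKM in CD4SP. The others were not called, among them Dntt, Cd24a and Cd1d1, with log2 ratios of -0.31 for Dntt, -0.22 for Cd24a and 0.26 for Cd1d1, and the part of immature cells in the result was not tested. In an exon-based value, which weights a transcript by how much of the RefSeq exon length it overlaps, the calls of Furin, Rfng, Cir1 and Maml2 were lost, with log2 ratios of 0.81 for Furin, 0.52 for Rfng, -0.19 for Cir1 and -0.64 for Maml2, while those of Neurl3, Gata3 and Il2ra held, and Myc was called at 1.07. That value has no interval, so its calls rest on level and ratio.

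**Figure D5:**
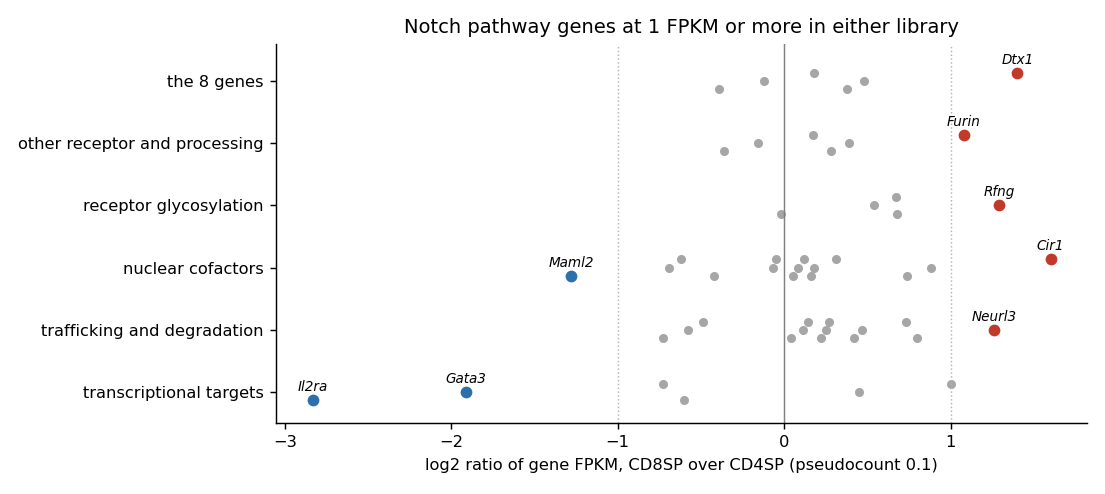
Log2 ratio of gene FPKM, CD8SP over CD4SP with 0.1 added to both, for the genes of each list at 1 FPKM or more in either library (the ligands have none). Coloured, named points were called, red where higher in CD8SP and blue where higher in CD4SP, and dotted lines mark a ratio of 1 in size. Dtx1 lies at 1.40, Cir1 at 1.6 and Il2ra at -2.83.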

How the data were processed

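The authors deposited 1 short-read file per lineage with the 4 lanes together, in which each transcript, from RefSeq or assembled, has FPKM, an interval and a read depth. Cufflinks wrote these values, per the file headers. Builds and tools in the submitters' processing notes, which state no roles, are GRCm38, TopHat2 2.0.14, Cufflinks 2.1.1, RSEM 1.3.1, FastQC, Trimmomatic and GSNAP. The sources used here do not give the number of reads or whether counting used strand. The deposited long-read tables list isoforms with, per the file headers, the percent of A downstream of each 3′ end. A further table with 2 value columns was not used here, since its isoforms carry no gene name.

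Transcripts were assigned by RefSeq identifier through the GRCm38.p6 gene table (29511 of 30082 matched a symbol), and gene FPKM, intervals, splicing events and PSI were computed in Python 3.11.15 with numpy 2.4.6. A log2 ratio with 0.1 added understates the change of low genes. Deposited FPKM lay outside its own interval in 5.19% of RefSeq transcripts in CD8SP and 4.89% in CD4SP, so the intervals are an incomplete measure of error and cover no difference between mice. An FPKM of 0 can be a failed estimate. A retained intron needed an exon reaching 10 bases past it on both sides, and the exon-based value used transcripts of at least 200 bases. Calls and event building were tested on simulated data.

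The 8 members, the lists and the thresholds were chosen with earlier results of these data known. Genes named are the members, every called gene of the wider lists, the highest gene of a list without a call, every called annotated event and every tested annotated event of Notch1, Notch2, Rbpj and Numb, the 3 further events per member with the most FPKM, and the highest assembled transcript per member and library. The called Notch1 introns at 26471306 and 26466344 and the called Rbpj intron at 53652763 fall outside this rule and were named after their values were seen. The same holds for the uncalled Notch1 introns at 26470059 and 26476494.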

Additional observations from a re-analysis of the deposited data

Results flagged for a closer look

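Long-read isoforms on the strand opposite to Numb, which belong to no member, numbered 3 in CD8SP and 4 in CD4SP. They are given here as a signal outside the measurements of the report, and not as a difference between the libraries. In CD8SP, 2 had a single exon and 1 had 2 exons and 2637 bases, and in CD4SP, 3 had a single exon and 1 had 2 exons and 2695 bases. The percent of A downstream of their 3′ ends was 90% for all 3 in CD8SP, and 25%, 55%, 90% and 90% in CD4SP. Notch2 also had 1 isoform on the opposite strand in each library, and Dtx1 had 0 in CD8SP and 1 in CD4SP, with 2 exons and 3431 bases. Without a stated use of strand, short reads of Numb, Notch2 or Dtx1 and of RNA opposite to them cannot be told apart, which bears on the call of Dtx1.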

How the results depend on the processing

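Dtx1 kept its call and its direction in each alternative run, with log2 ratios between 1.14 and 1.40. The number of members called was 2 with no minimum FPKM, where Notch3 joined it at 1.16, and 2 over RefSeq transcripts alone, where Notch1 joined it in the other direction at -1.67. It remained 1 with a pseudocount of 1, after scaling, in the exon-based value and without the intervals. Of 40 alternative values of single members, these were the only 2 that changed a call. The wider pathway had 7 genes called and 4 in the exon-based value, and between 5 and 10 in the other alternatives. Scaling changed the split of calls over all genes, which was 964 toward CD8SP and 458 toward CD4SP without it, to 656 toward CD8SP and 637 toward CD4SP.

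The 1 annotated event called became 3 at 10 points, 0 at a summed FPKM of at least 5 and 0 over RefSeq transcripts alone, the last chosen after seeing the data. The 8 calls among all events became 17 at 10 points, 1 at a summed FPKM of at least 5 and 1 with both forms above 0 FPKM in both files. The 15 long-read isoforms became 0 when those with 60% A or more were left out, and 1 among multi-exon isoforms. The cause of these differences was not tested, except that a stricter minimum leaves fewer events. No paired analysis was possible because each lineage has 1 pooled value. No replicate could be left out for the same reason, and the depth of the libraries is unknown.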

Other observations

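7 of the 8 members have promoters in the RefSeq table (GRCm38.p6), 10 promoters in all, each with 250 bases before the start and 50 after it. The core letters that RBPJ binds, TGGGAA or its reverse complement TTCCCA, were found in 2 of the 10, against 25.6% of 32851 promoters. Both belong to Rbpj itself, and their windows overlap and share 1 of the matches, so that they are not separate counts. The Dtx1 window held no match, which says only that these letters are not in it.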
